A study of Mus musculus with 12 samples.

Results

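The 10 genes described here handle the entry of glucose, the fate of pyruvate and the traffic of lactate: Ldha, Ldhb, Slc16a1, Slc16a3, Slc2a1, Hk1, Hk2, Pdk1, Mpc1 and Mpc2. They were taken by gene name out of the 49315 genes of the count files, and all 10 passed the filter on low counts. They were chosen by function and with results of these data in view: the low levels of Ldha, Slc16a3 and Slc2a1 in starved cells and their higher levels after re-addition put the group forward. Values of those 2 comparisons are therefore given as a description, without p-values. RNA was sequenced from MIN6 cells, a wild-type (WT) mouse insulinoma line labelled as pancreatic beta cells and grown in DMEM with serum and glutamine. The 12 libraries form 4 groups of 3. Cells labelled "readd AA and Rap 3h" (Rap cells) were given amino acids back together with Rap, an agent that the labels do not spell out. Cells labelled "readd AA 3h" (re-added cells) were given amino acids back alone, and cells labelled "no AA 16h" (starved cells) were held without amino acids. Those labelled "ctrl" were the controls, and the treatment label says no more of them. The sources used here do not give the dose of Rap, the glucose of the media or the time for which re-added and Rap cells had been starved. MIN6 is a single tumour-derived line. Nothing in the labels ties replicates to separate cultures, and the p-values may therefore rest on technical spread alone.

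Glucose enters cells through carriers such as GLUT1, the product of Slc2a1, and is trapped by hexokinases. The pyruvate made by glycolysis is either reduced to lactate by lactate dehydrogenase and exported by monocarboxylate carriers, or taken into mitochondria by the MPC1-MPC2 carrier and oxidised by the pyruvate dehydrogenase complex, which the PDK kinases switch off. Healthy β-cells keep lactate dehydrogenase A, the lactate carrier MCT1 and the low-Km hexokinases low, so that glucose carbon is steered to mitochondria. Ldha, Slc16a3, Slc2a1, Hk2 and Pdk1 are textbook targets of the hypoxia-inducible factor HIF-1, whose synthesis is favoured by the amino acid-sensing kinase complex mTORC1.

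The libraries held 18555958 to 25631056 counted reads. The 11 β-cell markers examined (Ins1, Ins2, Pdx1 and Mafa among them) were all detected and summed to 44160 to 71510 CPM, reads counted per fixed library total. Markers of other cells were also present, at levels that differed within groups. The 23 markers of fibroblasts, leukocytes, endothelium and lung epithelium, none of which was under 10 counts in every library, summed to 103 to 116 CPM in Rap libraries, 119 to 1203 CPM in re-added libraries, 152 to 2773 CPM in starved libraries and 2817 to 3347 CPM in control libraries. The high libraries were starved replicates 1 and 3, re-added replicate 1 and all 3 controls. Summed markers of red blood cells were high in the same libraries, for example 152.9 CPM in starved replicate 1 against 8.91 CPM in starved replicate 2. Whether these transcripts came from cells in the cultures or from elsewhere was not tested. In bulk RNA, fewer cells of a type and less RNA per cell cannot be told apart. Each comparison among Rap, re-added and starved cells, and starved against control, was therefore also made between libraries of like marker level, which leaves 1 starved library, assumed to vary like the others.

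The upstream sequences of Ldha, Slc16a3 and Slc2a1, the genes with the largest log2 fold changes in starved against control and in re-added against starved cells, are shown with that of Ldhb, which did not follow Ldha. Each is the 250 bases before the start of the RefSeq transcript on GRCm38.p6, written in the direction of the gene. RefSeq gives Ldha a second start, whose window of 300 bases (chr7:46846832-46847131) is not shown and held 0 ACGTG, 0 CACGTG and 2 GCGTG. Capitals mark ACGTG or GCGTG, the core letters bound by HIF dimers, on either strand, so that CACGT and CACGC are their reverse forms. The windows lie at chr7:46845554-46845803 (plus strand) for Ldha, chr11:120948817-120949066 (plus strand) for Slc16a3, chr4:119108495-119108744 (plus strand) for Slc2a1 and chr6:142507958-142508207 (minus strand) for Ldhb.
Ldha: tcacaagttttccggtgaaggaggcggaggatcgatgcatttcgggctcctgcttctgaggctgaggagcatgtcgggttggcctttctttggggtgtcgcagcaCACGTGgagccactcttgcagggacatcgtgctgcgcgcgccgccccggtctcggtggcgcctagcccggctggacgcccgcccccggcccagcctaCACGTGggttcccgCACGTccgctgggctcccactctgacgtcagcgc
Slc16a3: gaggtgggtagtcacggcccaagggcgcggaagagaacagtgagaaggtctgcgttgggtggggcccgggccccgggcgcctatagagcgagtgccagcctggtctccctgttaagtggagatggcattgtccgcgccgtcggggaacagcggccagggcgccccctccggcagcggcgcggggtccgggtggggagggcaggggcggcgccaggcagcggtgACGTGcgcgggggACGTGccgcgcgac
Slc2a1: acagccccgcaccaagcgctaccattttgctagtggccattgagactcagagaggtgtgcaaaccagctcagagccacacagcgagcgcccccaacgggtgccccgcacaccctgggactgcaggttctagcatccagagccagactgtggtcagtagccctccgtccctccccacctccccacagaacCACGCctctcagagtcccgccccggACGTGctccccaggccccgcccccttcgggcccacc
Ldhb: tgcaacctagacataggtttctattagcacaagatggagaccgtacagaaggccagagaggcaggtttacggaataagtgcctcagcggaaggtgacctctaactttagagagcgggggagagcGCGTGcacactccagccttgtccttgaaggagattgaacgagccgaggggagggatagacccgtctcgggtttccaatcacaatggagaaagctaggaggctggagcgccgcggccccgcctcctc
ACGTG occurred 5 times in the Ldha window, counting both strands, since each of its 2 CACGTG boxes, the E-box letters bound by MYC and MLX family dimers, holds it on both strands. The Slc16a3 window held ACGTG 2 times, the Slc2a1 window held ACGTG 1 time and GCGTG 1 time, and the Ldhb window held GCGTG 1 time and no ACGTG. In RefSeq windows that also take in the 50 bases after the start, all 10 genes had a window and ACGTG was found for 6 of them (Ldha, Slc16a1, Slc16a3, Slc2a1, Hk1 and Hk2), against 21.8% of 27025 genes. These 27025 are all genes with such a window, not the 16844 tested for level, so the sets are unlike. A gene counted if any of its windows held the letters (14 windows for the 10 genes, 32851 for all). GCGTG was found for 8 of the 10, against 35.2% of all genes. CACGTG was found for Ldha and Slc16a1, against 8.09% of all genes, and TGATGNAA, the core of the C/EBP-ATF element, for 0 of the 10, against 4.51% of all genes. Among the genes lower in starved than in control cells (edgeR, adjusted p under 0.05), Ldha, Slc16a3 and Slc2a1 had ACGTG in these windows. Pdk1, Mpc1 and Mpc2 were also lower there and had no ACGTG. Slc16a1, Hk1 and Hk2 had ACGTG but did not pass in that comparison, and Ldhb had none and did not pass. These are counts of letters, and their relation to the levels was not tested.

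Of the 10 genes, 6 were lower and 0 higher in starved than in control cells at an adjusted p under 0.05 in edgeR's quasi-likelihood test over 16844 genes (38.9% of all genes were called, 24.3% as higher and 14.6% as lower). They were Ldha, Slc16a3, Slc2a1, Pdk1, Mpc1 and Mpc2. After re-addition 7 were higher than in starved cells, namely these 6 and Hk1, and 1, Ldhb, was lower (37.3% of all genes were called, 18.4% as higher and 18.8% as lower). No inference is drawn from these counts, which belong to the comparisons that put the genes forward. With Rap, 4 of the 10 were lower than in re-added cells and 0 were higher, namely Ldha, Slc16a1, Slc16a3 and Slc2a1 (7.98% of all genes were called, 3.43% as lower and 4.55% as higher). The same re-added libraries served in the choice of Ldha, Slc16a3 and Slc2a1. This count and the median given below are therefore not independent of that choice and are a description. Groups of libraries that do not overlap are frequent in these data: they made up 38.9% of all genes tested in Rap against re-added, 50.6% in re-added against starved, 50.1% in starved against control, 53.1% in Rap against starved, 59.5% in re-added against control and 61.0% in Rap against control. The median log2 fold change of the 10 genes with Rap was -0.30, against 0.00042 over all genes tested.

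**Figure D1:**
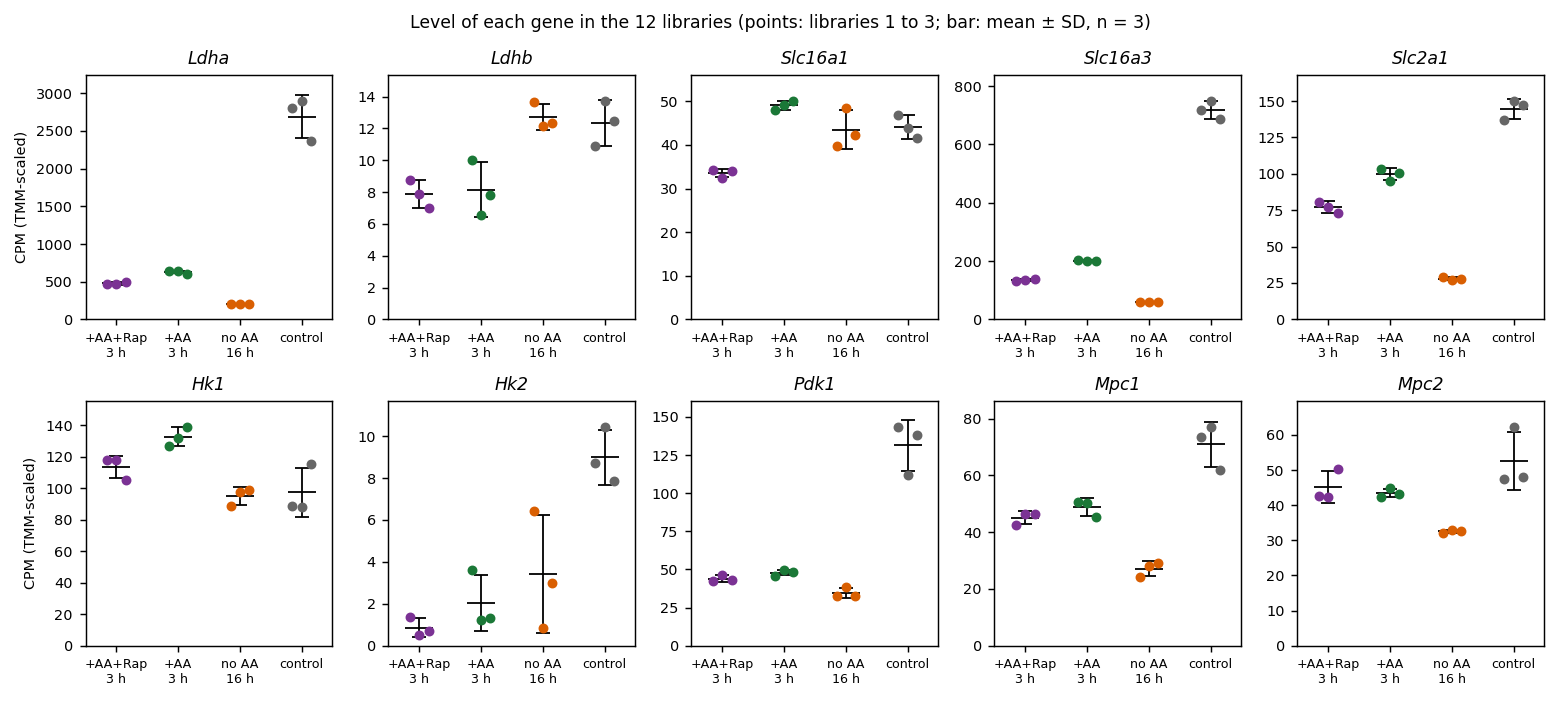
TMM-scaled CPM (vertical axis, from 0) of each gene in the 12 libraries, with Rap, re-added, starved and control cells from left to right; points are libraries, the long bar is the mean and the whiskers are the SD (n = 3). For Ldha, Slc16a3 and Slc2a1 the 4 groups do not overlap, whereas the controls of Hk1 span 87.9 to 115 CPM and the starved libraries of Hk2 span 0.856 to 6.44 CPM.

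Lactate dehydrogenase A (Ldha, ENSMUSG00000063229, chromosome 7, 46841475 to 46855627, plus strand), the isoform that favours the reduction of pyruvate to lactate, had the widest range of level. Its CPM was 465, 474 and 499.7 in Rap libraries, 636, 642 and 606 in re-added libraries, 204, 206 and 206 in starved libraries, and 2806, 2901 and 2367 in control libraries. The 4 groups did not overlap, and their order was control, re-added, Rap and starved. The log2 fold change was -3.71 (SE 0.09) in starved against control cells, 13.1-fold lower, and 1.61 (SE 0.08) in re-added against starved cells. Re-added cells still stood 4.28-fold below control (log2 fold change -2.10, SE 0.08). With Rap, Ldha was lower than in re-added cells by 0.39 on the log2 scale (-0.39, SE 0.08, adjusted p = 0.00928), at 0.764 times the re-added level. Without re-added replicate 2, Rap replicate 1 or Rap replicate 2 this difference was -0.37 to -0.38 and no longer passed (adjusted p of 0.0501 to 0.0541). The starved level was 204 CPM in starved replicate 1, which held 2773 CPM of other-cell markers, and 206 CPM in starved replicate 2, which held 152 CPM of them. Between libraries of like marker level the log2 fold changes were -3.70 in starved against control, 1.65 in re-added against starved and -0.40 in Rap against re-added.

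Lactate dehydrogenase B (Ldhb, ENSMUSG00000030246, chromosome 6, 142490249 to 142507957, minus strand), the isoform that favours lactate oxidation, was low throughout. Its CPM was 8.78, 7.89 and 7.002 in Rap libraries, 10.02, 6.57 and 7.84 in re-added libraries, 13.7, 12.1 and 12.3 in starved libraries, and 10.9, 13.7 and 12.5 in control libraries. Starved and control cells overlapped (log2 fold change 0.04, SE 0.16), as did Rap and re-added cells (-0.05, SE 0.16, adjusted p = 0.894). Both pairs were apart from each other: Ldhb was lower in re-added than in starved cells (-0.64, SE 0.16) and lower in re-added than in control cells (-0.60, SE 0.16, adjusted p = 0.0114). The last of these did not pass without re-added replicate 2 (-0.46, adjusted p = 0.0515). Markers of other cells were higher in controls, and re-added against control could not be compared between libraries of like marker level. Between libraries of like marker level the difference between re-added and starved cells was -0.69. Measured per length, as TPM, Ldhb made up 3.36% ± 0.479 of the 2 transcripts in Rap cells, 2.66% ± 0.551 in re-added cells, 11.5% ± 0.711 in starved cells and 0.966% ± 0.146 in control cells (SD, n = 3 each). Against control cells, the larger Ldhb share in starved cells went with a lower Ldha level and a like Ldhb level; against Rap and re-added cells it went with a lower Ldha level and a higher Ldhb level.

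The monocarboxylate carrier MCT4 (Slc16a3, ENSMUSG00000025161, chromosome 11, 120948480 to 120960868, plus strand), a lactate exporter of glycolytic cells, kept close to Ldha. Its CPM was 132, 137 and 139 in Rap libraries, 203, 199 and 199.9 in re-added libraries, 60.0, 59.9 and 58.7 in starved libraries, and 717, 749.7 and 686 in control libraries. The groups did not overlap. The log2 fold change was -3.59 (SE 0.06) in starved against control cells, 12.1-fold lower, and 1.75 (SE 0.06) in re-added against starved cells. With Rap it was -0.57 (SE 0.06, adjusted p = 0.000151), the smallest adjusted p of the 10 genes in that comparison, and -0.57 between libraries of like marker level. Over the 12 libraries, the gene whose log2 CPM was most like that of Ldha among 11492 genes of at least 5 mean CPM was Slc16a3 (Pearson r of 0.9974), and that of Slc16a3 was Ldha. Next for Ldha were Fam162a (0.9956) and Trpm5 (0.9944), and for Slc16a3 Stc1 (0.9929) and Fam162a (0.9928). These correlations rest on 4 groups of 3 libraries and are a description.

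The carrier MCT1 (Slc16a1, ENSMUSG00000032902, chromosome 3, 104638668 to 104658462, plus strand), which carries lactate and pyruvate in either direction and is among the genes that healthy β-cells keep low, moved differently. Its CPM was 34.2, 32.4 and 34.1 in Rap libraries, 48.1, 49.2 and 50.1 in re-added libraries, 39.9, 48.4 and 42.3 in starved libraries, and 47.0, 43.8 and 41.5 in control libraries. The Rap libraries lay below all 9 others. Starved and control cells did not differ beyond their spread (log2 fold change -0.02, SE 0.08). In re-added against starved cells the log2 fold change was 0.18 (SE 0.08), which did not pass, but it passed with upper-quartile scaling (0.24), in the 6 libraries of the comparison alone (0.20) and without starved replicate 2 (0.24). Between libraries of like marker level it was 0.09 and did not pass. With Rap, Slc16a1 was lower than in re-added cells (-0.55, SE 0.08, adjusted p = 0.00179), lower than in starved cells (-0.37, SE 0.08, adjusted p = 0.00427) and lower than in control cells (-0.39, SE 0.08, adjusted p = 0.00241). Per length, Slc16a1 made up 22.9% ± 0.791 of the 2 carrier transcripts in Rap cells, 22.7% ± 0.526 in re-added cells, 46.7% ± 2.45 in starved cells and 6.88% ± 0.380 in control cells. Of 15 other monocarboxylate carriers and their chaperones 12 were tested, and 0 were called with Rap, while 3 were higher and 2 lower in starved than in control cells (7.98% and 38.9% of all genes were called). Bsg, the chaperone that carries MCT1 and MCT4 to the membrane, stood at 2218 ± 94.5 CPM in Rap cells, 1922 ± 90.2 CPM in re-added cells, 2093 ± 191 CPM in starved cells and 2651 ± 264 CPM in control cells, and was lower in starved than in control cells (-0.34, SE 0.09). Emb, the other chaperone gene listed, went the other way there (524 ± 63.1 CPM in starved and 405 ± 21.2 CPM in control cells, 0.37, SE 0.08).

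**Figure D2:**
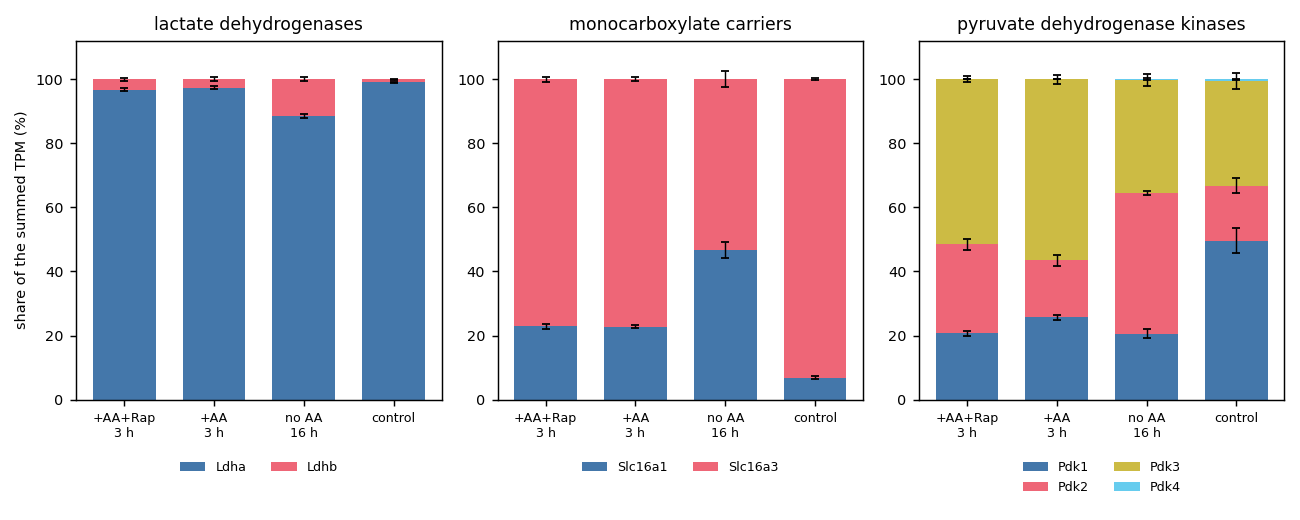
Share of each transcript in the summed TPM of its family (vertical axis, %), stacked, in Rap, re-added, starved and control cells from left to right; whiskers are the SD of each share over 3 libraries, drawn at the top of its segment. Slc16a1 reaches 46.7% of the carrier transcripts in starved cells against 6.88% in control cells, and Pdk1 20.6% against 49.6% of the kinase transcripts.

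The glucose carrier GLUT1 (Slc2a1, ENSMUSG00000028645, chromosome 4, 119108711 to 119137983, plus strand), which brings glucose into most cells at basal levels, came closer to its control level than Ldha or Slc16a3 did. Its CPM was 81.0, 77.4 and 73.2 in Rap libraries, 104, 95.2 and 101 in re-added libraries, 29.3, 27.2 and 27.6 in starved libraries, and 137, 150.2 and 147 in control libraries. The groups did not overlap. The log2 fold change was -2.37 (SE 0.07) in starved against control and 1.83 (SE 0.07) in re-added against starved cells. With Rap it was -0.37 (SE 0.07, adjusted p = 0.00499). Re-added cells remained below control by 0.53 on the log2 scale (-0.53, SE 0.07). An antisense gene shares 105 exon bases with Slc2a1 but had at most 7 counts in a library. The genes with the most similar pattern were Nans (r of 0.9814), Ak4 (0.9813) and P4ha2 (0.9792).

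Slc2a2 encodes GLUT2, the main glucose carrier of the rodent β-cell. It stood at 2.21 ± 0.365 CPM in Rap cells, 3.73 ± 0.473 CPM in re-added cells, 1.23 ± 0.304 CPM in starved cells and 9.39 ± 0.812 CPM in control cells. It was lower in starved than in control cells (log2 fold change -2.93, SE 0.22) and higher in re-added than in starved cells (1.59, SE 0.22). With Rap it did not pass (-0.75, SE 0.21, adjusted p = 0.0516), although it did under other settings, between libraries of like marker level among them (-0.75, adjusted p = 0.0188). Per length, Slc2a2 made up 1.71% ± 0.194 of the Slc2a1 and Slc2a2 transcripts in Rap cells, 2.22% ± 0.208 in re-added cells, 2.62% ± 0.694 in starved cells and 3.82% ± 0.499 in control cells. Among 11 other glucose carriers tested, 3 were higher and 2 lower in starved than in control cells, 1 was higher and 4 lower in re-added than in starved cells, and 2 were higher and 0 lower with Rap (38.9%, 37.3% and 7.98% of all genes were called). The 2 with Rap were Slc2a8, an intracellular carrier (31.8 ± 1.55 CPM in Rap cells and 16.7 ± 0.837 CPM in re-added cells; log2 fold change 0.93, SE 0.11, adjusted p = 0.000491), and Slc2a4, the insulin-sensitive carrier GLUT4 of muscle and fat (5.57 ± 1.15 CPM in Rap cells and 3.35 ± 0.197 CPM in re-added cells; 0.74, SE 0.20, adjusted p = 0.0415). The fructose carrier gene Slc2a5 stood at 333 ± 6.43 CPM in Rap cells, 292 ± 7.32 CPM in re-added cells, 485 ± 41.9 CPM in starved cells and 245 ± 1.46 CPM in control cells, and was higher in starved than in control cells (0.98, SE 0.07).

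The hexokinases trap glucose as glucose 6-phosphate. Hk1 (ENSMUSG00000037012, chromosome 10, 62268855 to 62379908, minus strand), the widely expressed low-Km form, had a CPM of 118, 118 and 105 in Rap libraries, 127, 132 and 139 in re-added libraries, 88.8, 97.9 and 99.0 in starved libraries, and 89.0, 87.9 and 115 in control libraries. Starved and control cells overlapped (log2 fold change -0.03, SE 0.10), and re-added cells lay above both (0.48, SE 0.10, against starved; 0.45, SE 0.10, adjusted p = 0.00473, against control). Hk1 was the only one of the 10 genes called above control after re-addition, although limma on TPM also called Slc16a1 (0.25). With Rap the log2 fold change was -0.22 (SE 0.10, adjusted p = 0.217), which did not pass although the 2 groups did not overlap. It passed in the 6 libraries of the comparison alone (-0.25, adjusted p = 0.00791) and between libraries of like marker level (-0.27, adjusted p = 0.00352). An antisense gene that shares 157 exon bases with Hk1 had 5 to 31 counts in a library, against at least 1626 for Hk1.

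Hk2 (ENSMUSG00000000628, chromosome 6, 82725025 to 82774454, minus strand), the inducible form of muscle, fat and tumours, had a CPM of 1.36, 0.497 and 0.705 in Rap libraries, 3.60, 1.24 and 1.32 in re-added libraries, 6.44, 0.856 and 2.99 in starved libraries, and 8.71, 10.4 and 7.85 in control libraries. It had as few as 9 counts in a library. Its level was high where markers of other cells were high, in starved replicates 1 and 3, re-added replicate 1 and the controls. Those markers summed to 2773, 152 and 1272 CPM in starved replicates 1, 2 and 3, and their part in the Hk2 values was not tested. The log2 fold change was -1.38 (SE 0.59) in starved against control cells and -1.26 (SE 0.65, adjusted p = 0.280) with Rap, neither of which passed. The first passed without starved replicate 1 (-2.25), with the replicate block (-1.73), with DESeq2 (-1.42) and with limma on TPM (-1.02), but between libraries of like marker level it was -0.46 and did not pass. In re-added against starved cells the value was -0.75 (SE 0.60), which did not pass, and it changed sign between libraries of like marker level (0.63) and without starved replicate 1 (0.10), where it did not pass either. In Rap against starved cells Hk2 was called lower (-2.02, SE 0.65, adjusted p = 0.0258), but between libraries of like marker level the value was 0.025 (adjusted p = 0.976). The call was also lost without starved replicate 1 (-1.196) and without Rap replicate 2 (-1.75) or 3 (-1.89).

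**Figure D3:**
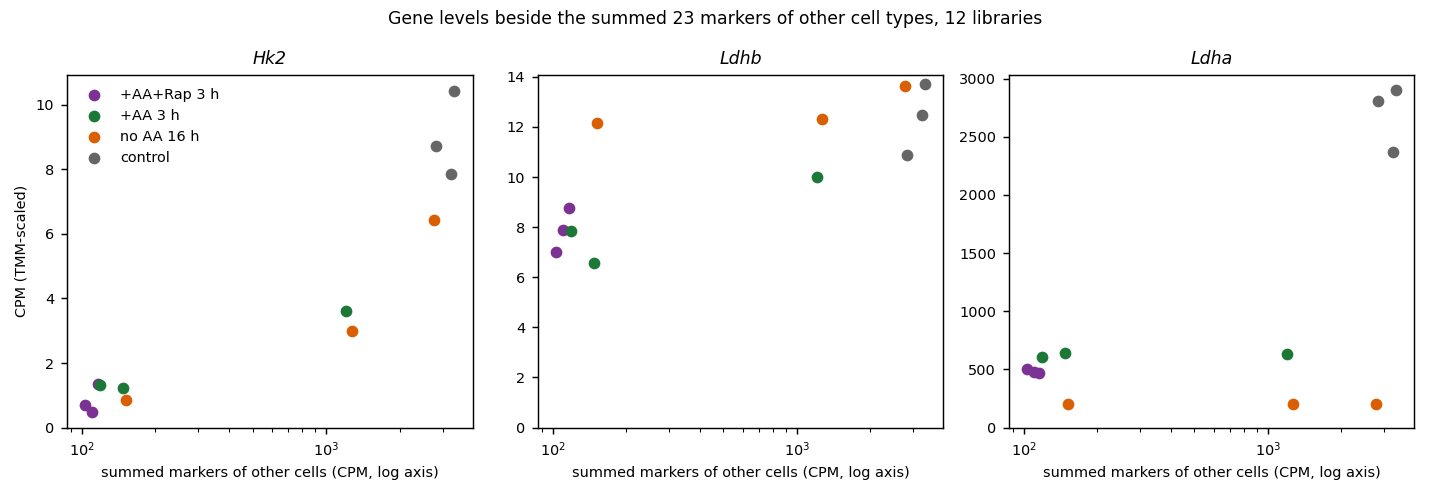
TMM-scaled CPM of Hk2, Ldhb and Ldha (vertical axes) against the summed CPM of 23 markers of other cell types (horizontal log axis) in the 12 libraries, coloured by group. Hk2 runs from 0.497 CPM in a Rap library to 10.4 CPM in a control library along the marker sum, whereas Ldha stays at 204 to 206 CPM in the 3 starved libraries while their marker sum runs from 152 to 2773 CPM.

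Pyruvate dehydrogenase kinase 1 (Pdk1, ENSMUSG00000006494, chromosome 2, 71873224 to 71903858, plus strand), which switches off the pyruvate dehydrogenase complex, had a CPM of 42.2, 46.3 and 43.3 in Rap libraries, 45.9, 49.5 and 48.5 in re-added libraries, 32.7, 38.3 and 32.6 in starved libraries, and 143, 112 and 138 in control libraries. The controls stood apart from all 9 treated libraries. The log2 fold change was -1.93 (SE 0.10) in starved against control and 0.47 (SE 0.10) in re-added against starved cells, and re-added cells stayed 2.74-fold below control (-1.45, SE 0.10, adjusted p = 2.4e-06). Rap and re-added cells overlapped, and their difference did not pass (-0.13, SE 0.10, adjusted p = 0.482). The genes with the most similar pattern were Maob (r of 0.9895), Pgk1 (0.9832) and Pgam1 (0.9791), named here after their values had been seen.

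Of the other kinases of the complex, Pdk2 moved opposite to Pdk1 in starved and re-added cells, and Pdk3 moved the same way. Pdk2 stood at 24.0 ± 1.49 CPM in Rap cells, 13.5 ± 1.73 CPM in re-added cells, 29.96 ± 2.26 CPM in starved cells and 18.5 ± 2.75 CPM in control cells. It was higher in starved than in control cells (log2 fold change 0.70, SE 0.12), lower in re-added than in starved cells (-1.15, SE 0.13) and higher with Rap than in re-added cells (0.84, SE 0.13, adjusted p = 0.00179). Pdk3 stood at 35.96 ± 1.06 CPM in Rap cells, 34.7 ± 0.360 CPM in re-added cells, 19.4 ± 1.66 CPM in starved cells and 28.4 ± 0.397 CPM in control cells. It was lower in starved than in control cells (-0.55, SE 0.08) and higher in re-added than in starved cells (0.84, SE 0.08), and the difference between Rap and re-added cells did not pass (0.05, SE 0.07, adjusted p = 0.730). Between libraries of like marker level, with 1 starved library, the starved against control values were 0.60 for Pdk2 and -0.66 for Pdk3, and neither passed. Per length, Pdk1 made up 20.7% ± 0.819 of the 4 kinase transcripts in Rap cells, 25.7% ± 0.838 in re-added cells, 20.6% ± 1.37 in starved cells and 49.6% ± 3.89 in control cells. The leading kinase transcript was Pdk3 in Rap and re-added cells (51.4% ± 0.903 and 56.6% ± 1.42), Pdk2 in starved cells (43.9% ± 0.619) and Pdk1 in control cells.

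Of the 11 genes of the complex and its regulators, all tested, 3 were higher and 1 lower in starved than in control cells, 2 were higher and 2 lower in re-added than in starved cells, and 2 were higher and 0 lower with Rap (38.9%, 37.3% and 7.98% of all genes were called). The 2 with Rap were Pdk2 and Pdp1, a phosphatase that switches the complex back on (27.8 ± 1.98 CPM in Rap cells and 16.3 ± 0.646 CPM in re-added cells; log2 fold change 0.77, SE 0.11, adjusted p = 0.0015). A kinase and a phosphatase with opposite actions on the complex were thus both higher in Rap cells. The other phosphatase gene, Pdp2, was at 30.2 ± 1.69 CPM in Rap cells and 28.7 ± 0.512 CPM in re-added cells (0.07, SE 0.08, adjusted p = 0.665).

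The mitochondrial pyruvate carrier is a pair of subunits, both needed for transport. Mpc1 (ENSMUSG00000023861, chromosome 17, 8282904 to 8297661, plus strand) had a CPM of 42.4, 46.2 and 46.4 in Rap libraries, 50.7, 50.4 and 45.1 in re-added libraries, 24.1, 28.0 and 29.2 in starved libraries, and 73.7, 77.0 and 62.0 in control libraries. Mpc2 (ENSMUSG00000026568, chromosome 1, 165460637 to 165481214, plus strand) had a CPM of 42.6, 42.4 and 50.4 in Rap libraries, 42.4, 44.8 and 43.1 in re-added libraries, 31.998, 32.8 and 32.8 in starved libraries, and 47.4, 62.2 and 48.1 in control libraries. For both, starved libraries lay below all others, and Rap and re-added libraries overlapped.

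For Mpc1 the log2 fold change was -1.39 (SE 0.10) in starved against control and 0.85 (SE 0.10) in re-added against starved cells. For Mpc2 it was -0.69 (SE 0.11) and 0.42 (SE 0.11). The lower Mpc2 level in starved than in control cells no longer passed between libraries of like marker level (-0.70), where 1 starved library was left. With Rap neither subunit passed (-0.11, SE 0.10, adjusted p = 0.526 for Mpc1; 0.06, SE 0.11, adjusted p = 0.801 for Mpc2). After re-addition both remained below control (-0.54, SE 0.10, adjusted p = 0.00136 for Mpc1; -0.27, SE 0.11, adjusted p = 0.0489 for Mpc2), a call that for Mpc2 was lost under 9 other settings, such as without control replicate 2 (-0.14, adjusted p = 0.184). Per length, Mpc1 made up 77.9% ± 1.46 of both transcripts in Rap cells, 79.8% ± 1.08 in re-added cells, 74.5% ± 1.68 in starved cells and 82.6% ± 1.71 in control cells. An overlapping gene on the other strand shares 480 exon bases with Mpc1 and had 8 to 22 counts in a library, against at least 523 for Mpc1.

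**Figure D4:**
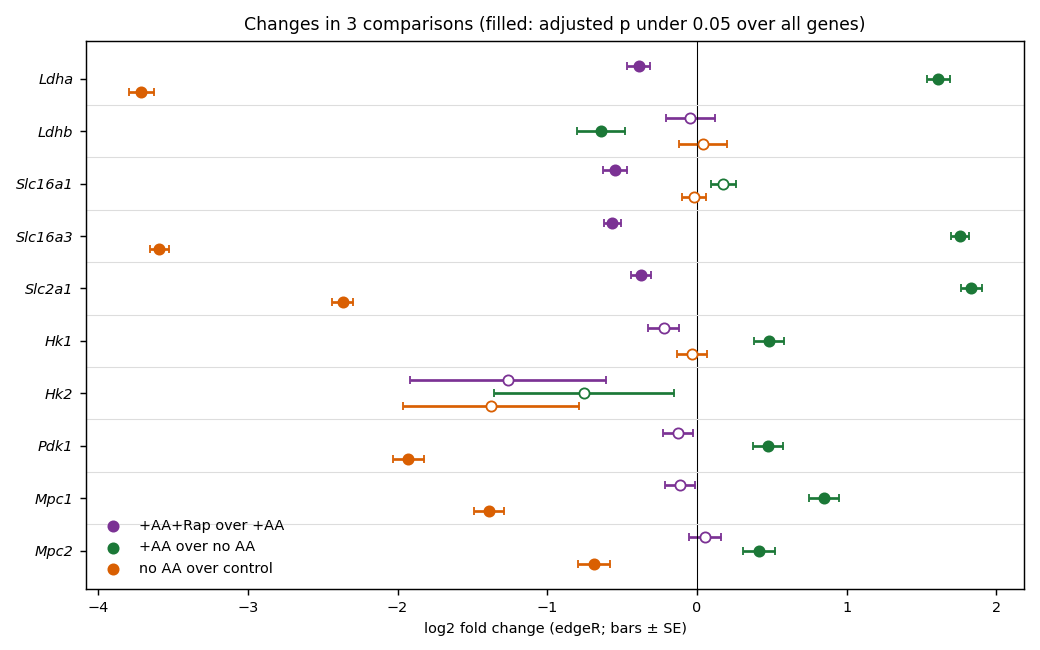
Log2 fold change (horizontal axis, edgeR, whiskers ± SE) of each of the 10 genes in Rap against re-added, re-added against starved, and starved against control cells; filled points have an adjusted p under 0.05 over all genes. With Rap only Ldha, Slc16a1, Slc16a3 and Slc2a1 are filled, at -0.39, -0.55, -0.57 and -0.37.

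Between libraries of like marker level, Slc16a3 changed by -3.56 on the log2 scale in starved against control and by 1.79 in re-added against starved cells, Slc2a1 by -2.29 and 1.91, Pdk1 by -1.99 and 0.41, and Mpc1 by -1.54 and 0.83. In Rap against re-added cells the values there were -0.58 for Slc16a1, -0.36 for Slc2a1, -0.17 for Pdk1, -0.10 for Mpc1 and 0.02 for Mpc2. None of these calls differed from those over all libraries.

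For the 6 genes that were lower in starved cells, the level after 3 h was set on a linear CPM scale. The starved mean is 0% and the control mean 100%. On a log2 scale each share would be larger. Log2 fold changes in re-added against starved and in starved against control cells were 1.61 and -3.71 for Ldha and 1.75 and -3.59 for Slc16a3. They were 0.47 and -1.93 for Pdk1 and 1.83 and -2.37 for Slc2a1. Ldha reached 11.04% ± 0.715 in Rap cells and 17.0% ± 0.782 in re-added cells. Slc16a3 reached 11.6% ± 0.526 in Rap cells and 21.5% ± 0.341 in re-added cells, and Pdk1 9.75% ± 2.203 in Rap cells and 13.9% ± 1.94 in re-added cells. Slc2a1 covered more of its gap, with 42.1% ± 3.33 in Rap cells and 61.6% ± 3.66 in re-added cells. Mpc1 reached 40.9% ± 5.17 in Rap cells and 49.4% ± 7.13 in re-added cells. Mpc2 reached 62.7% ± 22.7 in Rap cells, where replicate 3 alone lay at 89.0%, and 54.4% ± 6.05 in re-added cells. The SD covers the 3 libraries of the re-added or Rap group only, and the scale rests on the means of starved and control cells.

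**Figure D5:**
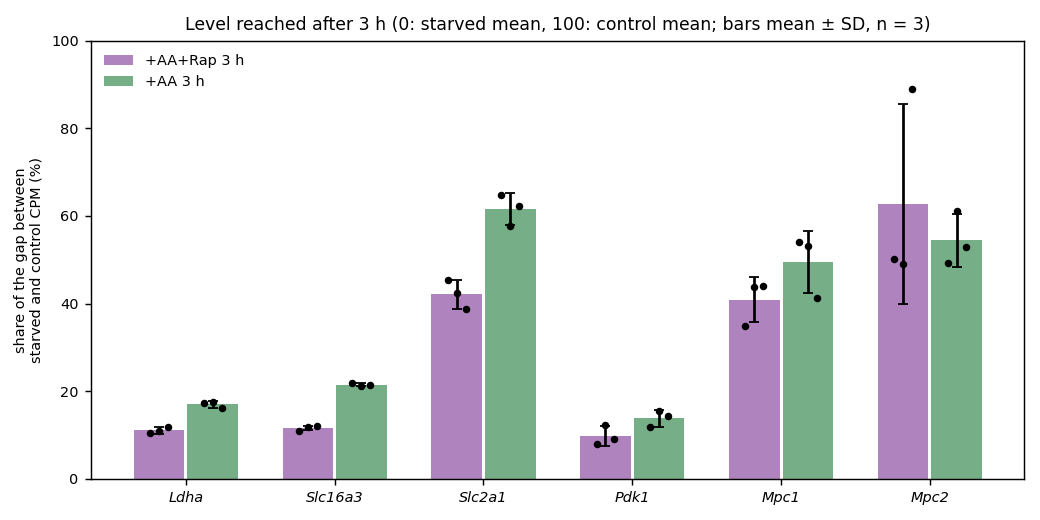
Share of the distance in linear CPM between the starved mean (0%) and the control mean (100%) reached by each gene (vertical axis) in Rap and re-added cells. Bars are means, points are libraries and whiskers are the SD (n = 3). Re-added cells reach 17.0% for Ldha and 61.6% for Slc2a1.

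In the secondary comparisons, 6 of the 10 genes were higher and 3 lower in Rap than in starved cells (44.1% of all genes were called, 20.2% as higher and 23.9% as lower). The Pdk1 call (edgeR, 0.35, adjusted p = 0.0158) was lost without Rap replicate 2 (0.31, adjusted p = 0.0617) and with limma on TPM (0.21, adjusted p = 0.196). Hk1 was not called (edgeR, 0.26, adjusted p = 0.0590) but passed under other settings, such as the 6 libraries alone (0.24, adjusted p = 0.00985). Between libraries of like marker level the values were 0.23 for Pdk1 and 0.25 for Hk1. Ldha was 2.34-fold higher in Rap than in starved cells (log2 fold change 1.22, SE 0.08), Slc16a3 2.28-fold (1.19, SE 0.06) and Slc2a1 2.75-fold (1.46, SE 0.07). In re-added against control cells 1 gene, Hk1, was higher and 8 were lower (49.3% of all genes were called, 24.8% as higher and 24.5% as lower). In Rap against control cells 0 were higher and 8 lower (53.0% of all genes were called, 27.7% as higher and 25.3% as lower). Hk2 was among the 8 in both (-2.13, SE 0.61, in re-added and -3.39, SE 0.66, in Rap against control cells). Its call in re-added against control cells was lost without re-added replicate 2 or 3. Markers of other cells were higher in controls, and neither comparison could be made between libraries of like marker level. These comparisons share libraries with those above. Ldha, Slc16a3 and Slc2a1 were put forward by their starved, re-added and control levels, so their values here are a description without p-values. Their p-values in Rap against re-added cells also rest on re-added libraries used in that choice.

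Per length, the order of the genes in control cells was Ldha at 2156 ± 159 TPM, Slc16a3 at 358 ± 13.6 TPM, Slc2a1 at 109.7 ± 7.13 TPM, Mpc1 at 90.2 ± 6.65 TPM, Pdk1 at 45.2 ± 8.75 TPM, Hk1 at 30.5 ± 6.64 TPM, Slc16a1 at 26.5 ± 2.51 TPM, Ldhb at 20.9 ± 1.72 TPM, Mpc2 at 18.9 ± 1.53 TPM and Hk2 at 3.98 ± 0.281 TPM. Libraries of the neighbours Pdk1 and Hk1, Hk1 and Slc16a1, and Ldhb and Mpc2 overlapped, and those of the other neighbours did not. In starved cells Ldha remained the highest, at 180.0 ± 12.5 TPM, but Mpc1 (37.6 ± 2.18 TPM), Slc16a3 (32.5 ± 2.53 TPM), Hk1 (32.3 ± 1.07 TPM) and Slc16a1 (28.4 ± 1.21 TPM) came within a narrow range.

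Of 19 tested genes of glycolysis between hexokinase and pyruvate kinase, 1 was higher and 13 lower in starved than in control cells, 12 were higher and 2 lower in re-added than in starved cells, and 0 were higher and 7 lower with Rap (median log2 fold change -0.22, against 0.00042 over all genes). The shares of all genes called there were 38.9%, 37.3% and 7.98%. Pfkfb3, which makes the activator of phosphofructokinase, stood at 27.6 ± 2.05 CPM in Rap cells, 58.7 ± 1.79 CPM in re-added cells, 31.5 ± 6.80 CPM in starved cells and 94.3 ± 13.5 CPM in control cells. It was lower with Rap than in re-added cells (-1.09, SE 0.14, adjusted p = 0.000771). Tigar, a phosphatase that opposes Pfkfb3, was also lower with Rap (63.9 ± 3.49 CPM, against 89.3 ± 1.203 CPM in re-added cells; -0.48, SE 0.09, adjusted p = 0.00763).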

How the data were processed

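RNA was sequenced from 12 MIN6 libraries, 3 in each of 4 groups assigned from the treatment labels. The authors deposited raw read counts per gene, 1 table per library, and a table of TPM values with gene names, which equal the counts per exon length rescaled within 5e-05 and so carry no depth. The submitters' processing notes name Subread 2.0.1, limma 3.46.0 and the build GRCm38.p6. The sources used here do not give the aligner, the strand setting or the treatment of reads that match several places, so counts of genes with processed copies or antisense partners are uncertain to that extent. Of 49315 genes, 174 had no name. Replicates of a group differed beyond sampling noise.

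The test was edgeR 4.0.16 in R 4.3.3, after a filter by filterByExpr (minimum count 10, minimum total 15), which left 16844 genes with 99.9% of the counts. Libraries were scaled by TMM, and a single quasi-likelihood model of all 12 held a mean for each of the 4 groups, leaving 8 residual degrees of freedom. P-values were adjusted over all genes by Benjamini-Hochberg, with a threshold of 0.05; the SE is the log2 fold change over the square root of F. At 5 CPM a library of these totals (18555958 to 25631056) holds 92.8 to 128 reads. Alternatives were DESeq2 1.42.0, upper-quartile factors, no filter, limma 3.58.1 on log2(TPM + 1), the replicate block, the libraries of a comparison alone, each library left out, and libraries of like marker level. The routines were tested on simulated counts.

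The members and gene lists were chosen with earlier results of these data known. All members are named; of each list, the called genes of at least 5 mean CPM with the 2 largest positive and 2 largest negative changes may be named in each main comparison, with Slc2a2, Pcx, Hif1a and Myc always named, and the 3 genes most like Ldha, Slc16a3 and Slc2a1 by Pearson r of log2 CPM (prior count 2). Bsg, Pdp2, Pdk3 and other list genes named outside that rule in a given comparison were chosen for their role. Promoter windows come from RefSeq on GRCm38.p6. Some genes that the rule takes, and the family share that needs them, are not reported here.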

Additional observations from a re-analysis of the deposited data

How the results depend on the processing

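The count of the 10 genes called stayed within 1.5 times of that reported under every setting tried. Leaving out each library in turn gave 6 to 7 called in starved against control, 8 to 9 in re-added against starved, 3 to 4 in Rap against re-added, 7 to 10 in Rap against starved, 6 to 9 in re-added against control and 8 to 9 in Rap against control. Counts over all genes that moved beyond 1.5 times are given below. Of 1120 single-gene values of the 10 genes under other settings, 1061 kept their direction and side of the threshold, 20 passed anew and 23 no longer passed. Another 16 changed sign. Of these, 15 were not called in either case, and the call of Hk2 in Rap against starved cells turned to 0.025 between libraries of like marker level. Among list genes, values called in at least 1 of the settings compared changed sign 3 times, all between those libraries: Epas1 in re-added against starved (1.16) and in Rap against starved (1.204), and Hk3 in Rap against starved (0.27). The cause was not tested. Those comparisons rest on 1 starved library, and none could be made for re-added or Rap against control, since no re-added or Rap library has the marker level of the controls.

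The labels do not say what same-numbered libraries share. The correlation of their deviations between starved and re-added cells was 0.89 for replicate 1, 0.79 for replicate 2 and -0.36 for replicate 3. Between the other pairs of groups it ran from -0.29 to 0.21. Markers of other cells were high in starved and re-added replicate 1 and low in starved and re-added replicate 2. A shared source of these libraries was not tested. With the replicate block 7 of the 10 genes were called in starved against control, 8 in re-added against starved, 4 in Rap against re-added, 9 in Rap against starved, 8 in re-added against control and 8 in Rap against control. Over all 16844 genes the block gave 3919 higher and 2593 lower calls in starved against control. The like counts were 2943 and 3027 in re-added against starved, 621 and 446 in Rap against re-added, and 3225 and 3703 in Rap against starved. Against control they were 3999 and 4110 in re-added cells, and 4490 and 4100 in Rap cells.

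Counts over all genes moved more. In starved against control they were 6559, against 4199 in the 6 libraries alone and 1236 between libraries of like marker level, which leave 2 residual degrees of freedom. In Rap against re-added they were 1344, against 2239 with DESeq2, 3959 in the 6 libraries alone, 3935 between libraries of like marker level, 2058 without control replicate 2, and 635 to 693 without re-added replicate 2 or 3 or any Rap library. In Rap against starved they were 7424, against 4940 without Rap replicate 3, and in re-added against control 8304, against 5208 without re-added replicate 3. The share of calls that were higher in starved cells was 62.5%, against 44.6% with upper-quartile factors, which moved the median of all genes by -0.14, and 72.3% with limma on TPM. With Rap it was 57.0%, against 28.8% with limma on TPM. Shares of a family taken from counts in place of TPM moved beyond 1 SD in 53 of 60 cases, since they are not per length. In the 250 bases before the start alone, ACGTG was found for 5 of the 10 genes, against 18.5% of all genes.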

Other observations

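Transcripts of other enzymes around pyruvate and of the NADH shuttles were read in the same fit. Of 9 other genes around pyruvate, 2 were higher and 5 lower in starved than in control cells, 3 were higher and 2 lower in re-added than in starved cells, and 0 were called with Rap (38.9%, 37.3% and 7.98% of all genes were called). Pck2 is counted among the 9, although its enzyme neither makes nor consumes pyruvate. Gpt2, the mitochondrial alanine transaminase gene, stood at 31.5 ± 1.66 CPM in Rap cells, 38.0 ± 0.508 CPM in re-added cells, 109.7 ± 11.8 CPM in starved cells and 30.2 ± 3.23 CPM in control cells (SD, n = 3 each). Pck2, which makes phosphoenolpyruvate in mitochondria, stood at 92.3 ± 2.64 CPM in Rap cells, 102 ± 3.65 CPM in re-added cells, 221 ± 27.4 CPM in starved cells and 134 ± 17.2 CPM in control cells. Both were highest in starved cells, where Ldha was lowest. In control cells, where Ldha was highest, Pck2 stood above its Rap and re-added levels. Pkm, the pyruvate kinase gene, was at 1933 ± 40.7 CPM in Rap cells, 1980 ± 34.9 CPM in re-added cells, 1769 ± 129 CPM in starved cells and 3022 ± 255 CPM in control cells. Pcx, the pyruvate carboxylase gene, was at 179.7 ± 5.44 CPM in Rap cells, 149 ± 6.25 CPM in re-added cells, 156 ± 10.6 CPM in starved cells and 188 ± 22.98 CPM in control cells. Of 9 NADH shuttle genes, 0 were higher and 3 lower in starved than in control cells, and 0 were higher and 2 lower with Rap (38.9% and 7.98% of all genes were called). The 2 with Rap were Gpd1 (19.4 ± 1.67 CPM in Rap cells and 25.8 ± 2.80 CPM in re-added cells) and Got1 (89.0 ± 1.75 CPM in Rap cells and 111 ± 1.96 CPM in re-added cells).

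Of 10 genes of transcription factors known to act on these genes, 4 were higher and 1 lower in starved than in control cells, 1 was higher and 3 lower in re-added than in starved cells, and 1 was higher with Rap (38.9%, 37.3% and 7.98% of all genes were called). Hif1a stood at 85.6 ± 3.01 CPM in Rap cells, 97.2 ± 0.862 CPM in re-added cells, 96.6 ± 6.37 CPM in starved cells and 86.1 ± 8.90 CPM in control cells, and passed in none of the 3 main comparisons. Myc stood at 4.79 ± 0.780 CPM in Rap cells, 4.97 ± 0.715 CPM in re-added cells, 9.24 ± 0.938 CPM in starved cells and 5.50 ± 0.964 CPM in control cells, and was higher in starved cells than in control cells (log2 fold change 0.75, SE 0.18). Mlx, the partner of the glucose-sensing Mondo factors, stood at 79.4 ± 5.15 CPM in Rap cells, 93.6 ± 2.30035 CPM in re-added cells, 62.4 ± 4.93 CPM in starved cells and 98.8 ± 8.72 CPM in control cells, and was lower in starved than in control cells (-0.66, SE 0.08) and higher in re-added than in starved cells (0.59, SE 0.08). Of 5 genes of HIF hydroxylases and Vhl, 2 were higher and 1 lower in starved than in control cells. In re-added against starved cells 1 was higher and 2 were lower, and 0 were called with Rap (38.9%, 37.3% and 7.98% of all genes were called). Higher in starved than in control cells were Egln2 (0.35, SE 0.10) and Hif1an (0.46, SE 0.12). The lower one was Egln3, a HIF prolyl hydroxylase gene that HIF itself induces. Egln3 stood at 8.80 ± 0.875 CPM in Rap cells, 12.4 ± 0.365 CPM in re-added cells, 8.53 ± 1.69 CPM in starved cells and 13.0 ± 1.103 CPM in control cells.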
